A study of Mus musculus with 24 samples.

Results

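The water and sodium transport genes of principal cells were followed in whole mouse kidneys at embryonic day 18.5. They are 9 of the 54393 genes counted, taken by name: the aquaporin genes Aqp2, Aqp3 and Aqp4, the vasopressin receptor gene Avpr2, the epithelial sodium channel genes Scnn1a, Scnn1b and Scnn1g, the steroid enzyme gene Hsd11b2, and the transcription factor gene Elf5. None of the 9 passed the test in any knockout (edgeR, adjusted p under 0.05), where 0.444% of all genes tested passed in Dmrt2 knockouts, 0.021% in Hmx3 Hmx2 knockouts and 1.03% in libraries labelled triple knockout. The differences that came nearest were a lower Aqp3 in Dmrt2 knockouts and a lower Scnn1g in the libraries labelled triple knockout, and Avpr2 could not be measured with these counts.

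Principal cells are the water and sodium absorbing cells of the collecting duct, where they alternate with the acid-base transporting intercalated cells. Vasopressin binds the V2 receptor on their basolateral side, cyclic AMP and protein kinase A then drive aquaporin-2 vesicles into the apical membrane, and water leaves the cell through aquaporin-3 and aquaporin-4. Sodium enters through the apical epithelial sodium channel (ENaC), whose abundance aldosterone raises through the mineralocorticoid receptor, and 11-beta-hydroxysteroid dehydrogenase type 2 inactivates glucocorticoids so that they do not occupy that receptor. Connecting tubule cells share much of this machinery.

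Kidneys lacking Dmrt2 (Dmrt2 KO, n = 3), lacking Hmx3 and Hmx2 (Hmx3; Hmx2 KO, n = 6), or labelled as lacking all 3 genes (3XKO, n = 3) were each compared with the same number of control littermates of their own line, 24 libraries in all. The 3 genes encode transcription factors studied here for the subtypes of intercalated cells. The labels name no alleles or Cre driver, their strain field repeats the name of the line, and they do not say that each library came from a separate embryo. The p-values therefore measure the spread between libraries, which may in part be technical.

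Libraries held 52286824 to 127339273 counted reads, so 3 reads were worth 0.0237 to 0.0574 counts-per-million units (CPM). Dmrt2 stood at 1.58 to 2.24 CPM in Dmrt2 knockouts, against 12.3 to 15.1 CPM in their controls. Hmx2 stood at 0 to 0.0606 CPM in Hmx3 Hmx2 knockouts, against 1.57 to 2.27 CPM in their controls, and at 0 to 0.021 CPM in the libraries labelled triple knockout, against 2.33 to 3.36 CPM in their controls. Dmrt2, however, stood at 17.7 to 19.1 CPM in the libraries labelled triple knockout, against 10.7 to 12.3 CPM in their controls. Its transcript was thus higher there, not lower. Since the labels name no alleles, these counts do not tell whether its product was lost. Expression of Y-linked genes was found in a single Dmrt2 knockout library (replicate 1), against 3 of 3 control libraries of that line. All 10 other principal cell genes on a fixed list were detected in every line, and their summed level was 1130 to 1390 CPM over the 24 libraries. Most of that sum was Npnt, which averaged 819 CPM.

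To set genes side by side, CPM were divided by the exon length of each gene in kilobases. Aqp2 was the most abundant, at 207 ± 56.4 CPM per kilobase (SD, n = 24), above Aqp3 in 24 of 24 libraries. Aqp3 (46.5 ± 4.97) and Hsd11b2 (45.8 ± 3.7) could not be ordered, with Aqp3 the higher in 12 of 24 libraries. Scnn1b followed at 40.7 ± 3.27, below Hsd11b2 in 19 of 24 libraries. Among the ENaC subunits the order per kilobase of beta (Scnn1b), gamma (Scnn1g, 23.4 ± 2.97) and alpha (Scnn1a, 17.1 ± 1.79) held in all 24 libraries. Before this division Scnn1g and Scnn1a averaged 69.9 and 70.8 CPM. The order of gamma above alpha thus rests on their annotated exon lengths, 2991 and 4132 bp. Aqp4 (5.41 ± 1.07) and Elf5 (4.28 ± 0.392) came below, with Aqp4 the higher in 19 of 24 libraries, and Avpr2 stood at 0.0396 ± 0.0282 CPM per kilobase.

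**Figure D1:**
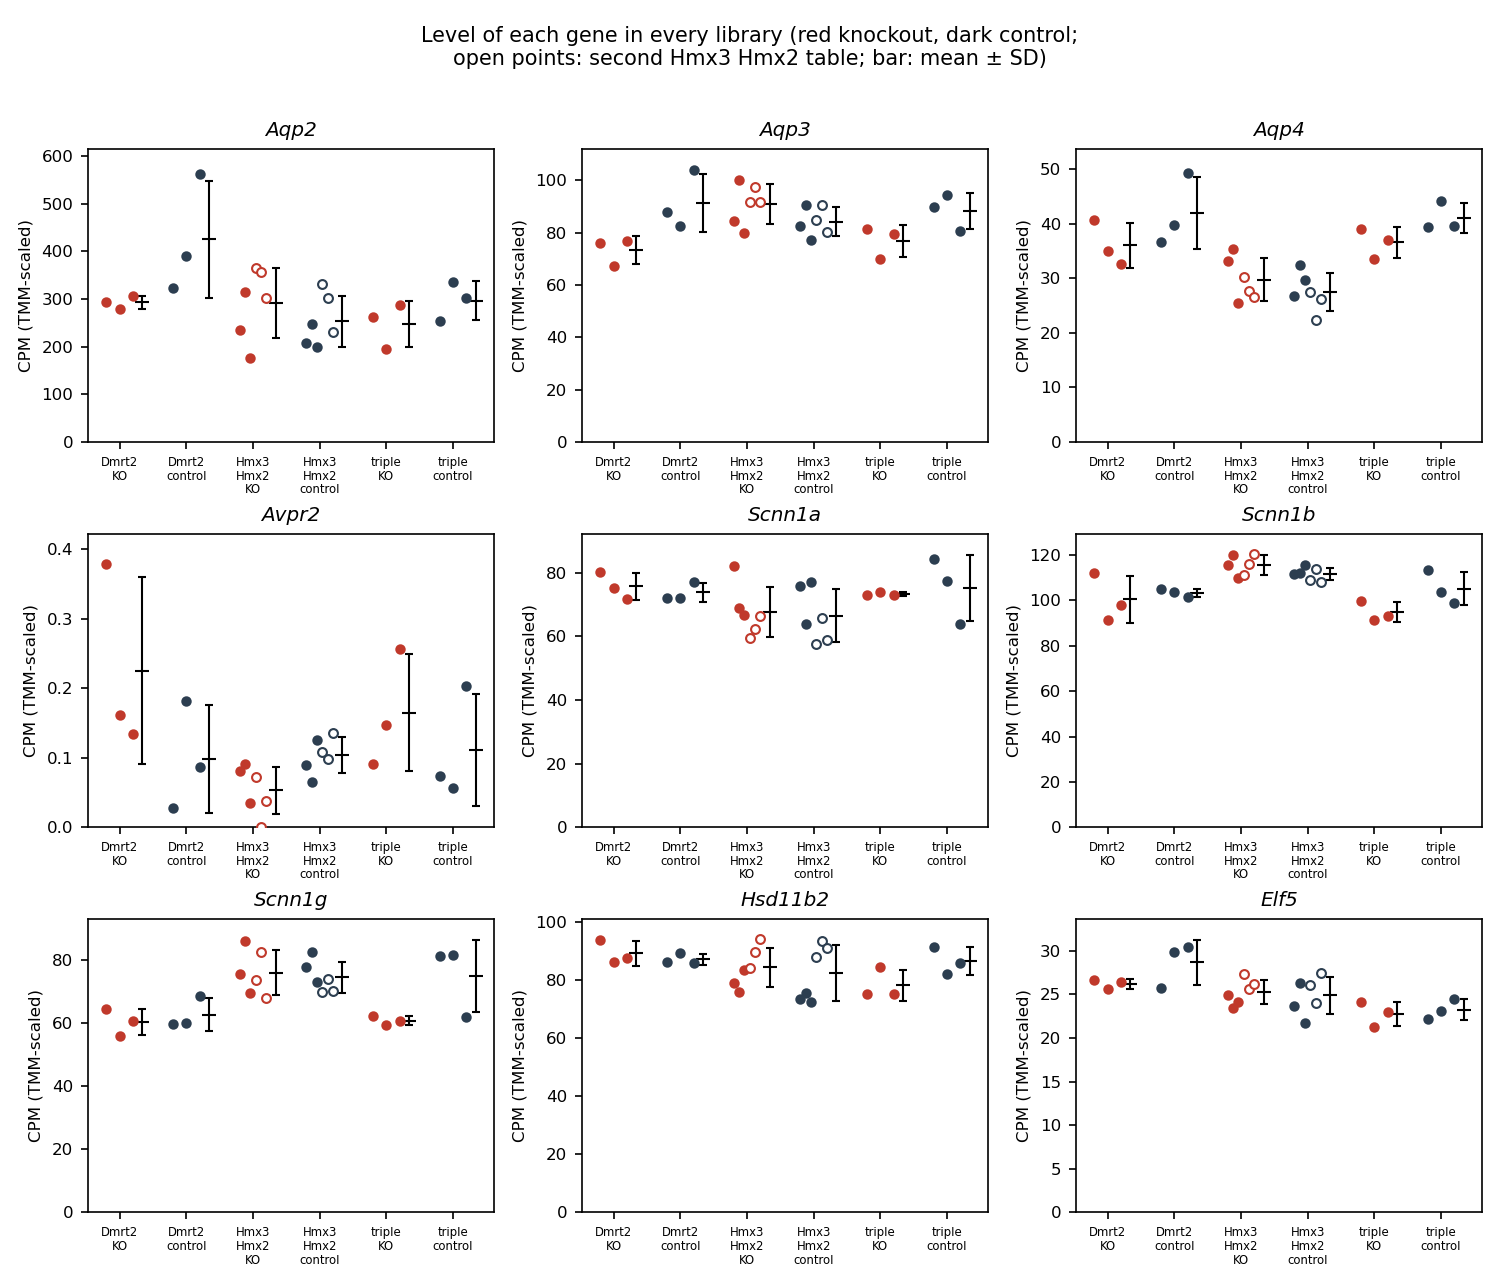
Level of the 9 genes in each of the 24 libraries in CPM (y axis, from 0), by group (x axis, knockout left of its control), with the mean and SD at the right of each group and open points for Hmx3 Hmx2 replicates 4 to 6. Aqp2 ranges from 176 to 561 CPM, while Scnn1b stays between 91.4 and 120.6 CPM.

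Aqp2 encodes the vasopressin-regulated apical water channel. Dmrt2 knockouts had 294, 279 and 307 CPM, against 323, 390.3 and 561 CPM in their controls. All 3 knockout libraries lay below all 3 controls, and the control at 561 CPM was the highest of the 24 libraries. The log2 fold change was −0.52 ± 0.21 SE (95% interval −1.08 to 0.03, edgeR adjusted p = 0.43), so it did not pass the test. It was −0.27 without that control library (replicate 3), with an adjusted p of 0.19. Fewer principal cells and less Aqp2 RNA per cell cannot be told apart in whole kidneys, here or in any comparison that follows.

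In Hmx3 Hmx2 knockouts Aqp2 ran from 176 to 366 CPM with a median of 308, against 198 to 332 CPM with a median of 239 in controls. The groups overlapped (log2 fold change 0.21 ± 0.14 SE, adjusted p = 0.95). In the libraries labelled triple knockout it had 262, 195 and 287 CPM, against 254, 335 and 301 CPM in controls, and the groups overlapped as well (−0.23 ± 0.18 SE, adjusted p = 0.55). Within groups Aqp2 was the most variable of the 8 genes other than Avpr2, with an SD of 0.272 on the log2 scale, above 95.4% of the 15039 genes with a mean of at least 1 CPM.

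Aqp3 encodes the basolateral water and glycerol channel, and is expressed in urothelium as well. In Dmrt2 knockouts it stood at 75.9, 67.1 and 76.7 CPM, against 87.8, 82.4 and 104 CPM in controls. The groups did not overlap, with a mean of 73.2 ± 5.31 CPM in knockouts and 91.4 ± 11.2 CPM in controls (SD, n = 3 each). The log2 fold change was −0.31 ± 0.083 SE (95% interval −0.49 to −0.13), lower in 3 of 3 knockout libraries, with an unadjusted p of 0.0034 in the fit across all genes and an adjusted p of 0.16. It was thus not called by edgeR, while DESeq2 called it (−0.31, adjusted p = 0.022), as did edgeR without its filter on low counts (adjusted p = 1.5e-04).

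The sexes were unequal in this comparison, and with a covariate for Y-linked expression the Aqp3 change was −0.26 (adjusted p = 0.72). The knockout library that expressed Y-linked genes, replicate 1, had 75.9 CPM, between the others. With a single such knockout library, sex and loss of Dmrt2 cannot be told apart here. The 8 listed urothelial genes, uroplakins and keratins among them, all had log2 fold changes below 0 (median −0.76, against −0.002 for all genes tested), 0 of 8 were called, and their summed level was 34.8 to 70.3 CPM in Dmrt2 knockouts and 66.6 to 96.3 CPM in controls. No listed urothelial gene was under 0.1 CPM in all libraries. The 7 listed distal and connecting tubule genes summed to 338 to 447 CPM in Dmrt2 knockouts and 440 to 567 CPM in controls, with 0 called. The part of either cell type in the Aqp2 and Aqp3 values was not tested. No gene was called in any knockout on the lists for proximal tubule, loop of Henle, podocytes, ureteric tip, nephron progenitors or stroma. The same held for endothelium, red cells, macrophages, glia, skeletal muscle and adrenal cortex. These lists hold 4 to 6 genes each, and 2 of the 6 adrenal cortex genes were tested. With 0.444%, 0.021% and 1.03% of all genes called in Dmrt2, Hmx3 Hmx2 and triple, 0 calls say little about these cells.

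Elsewhere Aqp3 was closer to its controls. Hmx3 Hmx2 knockouts ran from 79.8 to 100 CPM with a median of 91.7, against 77.1 to 90.5 CPM with a median of 83.6 in controls. Higher values were thus in the knockouts (log2 fold change 0.12 ± 0.053 SE, 95% interval 0.00 to 0.23, adjusted p = 0.94), though the groups overlapped. The sexes were unequal in this line as well. Y-linked genes were expressed in knockout replicates 1 and 4 and in control replicates 1, 3, 4 and 6. With the Y-linked covariate 0 of 8 members had an unadjusted edgeR p under 0.05, against 1 without it. Triple-labelled knockouts had 81.3, 69.9 and 79.3 CPM, against 89.7, 94.4 and 80.6 CPM in controls. There a single knockout value, 81.3 CPM, lay above the lowest control (−0.18 ± 0.072 SE, adjusted p = 0.25).

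Aqp4 encodes a second basolateral water channel, best known from astrocyte end-feet. In Dmrt2 knockouts it stood at 40.6, 34.9 and 32.6 CPM, against 36.6, 39.8 and 49.4 CPM in controls, and the groups overlapped (log2 fold change −0.21 ± 0.12 SE, adjusted p = 0.54). The change was −0.08 without control replicate 3 and −0.05 with the Y-linked covariate. Hmx3 Hmx2 knockouts ran from 25.4 to 35.3 CPM with a median of 28.9, against 22.3 to 32.4 CPM with a median of 27.1 in controls (0.13 ± 0.080 SE, adjusted p = 0.94). The triple-labelled knockouts had 39.1, 33.6 and 37.0 CPM, against 39.4, 44.1 and 39.5 CPM in controls. The 3 knockout values lay below the 3 controls by a narrow margin (−0.14 ± 0.069 SE, adjusted p = 0.31). The astrocyte gene Gfap averaged 0.876 CPM over the series, but it does not stand for its list. The 5 listed glial genes summed to 84.8 to 92.2 CPM in Dmrt2 knockouts and 86.3 to 93.3 CPM in controls. The part of glia in the Aqp4 values was not tested.

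The balance of the exit channels went with the line. The ratio of Aqp3 to Aqp4 per kilobase averaged 10.5 ± 1.26 in Hmx3 Hmx2 knockouts and 10.6 ± 1.71 in their controls (SD, n = 6 each). In the Dmrt2 line it was 6.98 ± 0.902 in knockouts and 7.46 ± 0.611 in controls, and in the triple line 7.16 ± 0.119 in knockouts and 7.33 ± 0.412 in controls (SD, n = 3 each). The lowest ratio in the Hmx3 Hmx2 line, 8.65, lay above the highest elsewhere, 8.17. Line and deposited tables cannot be told apart, and the ratio was given no test.

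The Hmx3 Hmx2 line came in a pair of tables, and within each the water channels kept their small positive values. For replicates 1 to 3 and for replicates 4 to 6 the log2 fold changes were 0.17 and 0.25 for Aqp2, 0.10 and 0.14 for Aqp3, and 0.10 and 0.16 for Aqp4, with adjusted p = 1.0 in edgeR for each.

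Counts of the V2 receptor gene Avpr2 were low. It is transcribed from the X chromosome on the plus strand (72935708 to 72939108 on mm39), and 2347 of its 2886 exonic bases (81.3%) also lie in exons of Arhgap4, a gene on the opposite strand. Reads were counted without strand, and a read that fits exons of both genes was assigned to neither. Avpr2 had 0 to 30 reads in a library, and how far this reflects the overlap or a low level cannot be told apart. Dmrt2 knockouts had 26, 10 and 17 reads, against 2, 14 and 6 reads in controls. Libraries labelled triple knockout had 9, 14 and 30 reads, against 8, 6 and 22 reads in controls. The Hmx3 Hmx2 libraries held 0 to 6 reads in knockouts and 6 to 8 reads in controls, and Avpr2 fell below the count filter there. It was not called in the Dmrt2 comparison (1.15 ± 0.68 SE, adjusted p = 0.54) or the triple comparison (0.60 ± 0.65 SE, adjusted p = 0.67), and the 95% interval in the Dmrt2 comparison, −0.32 to 2.62, covers anything from a decrease to a several-fold increase. The other 8 genes share 0 exonic bases with any other gene in the deposited annotation.

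**Figure D2:**
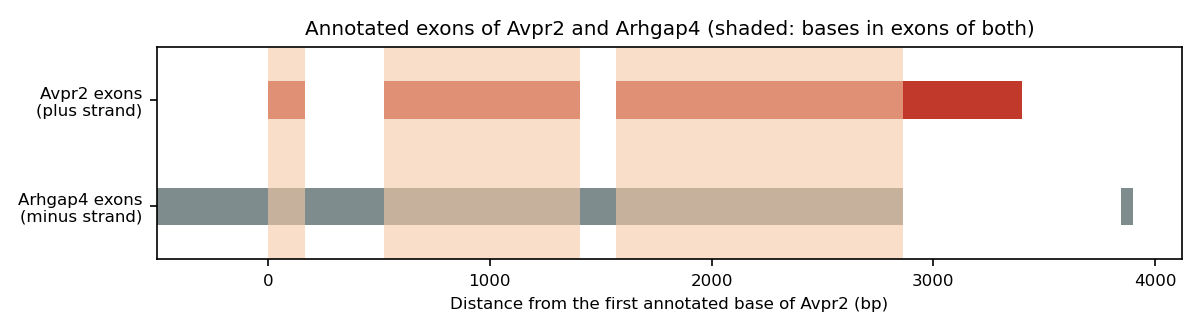
Annotated exons of Avpr2 and of Arhgap4, drawn to scale against the distance in base pairs from the first annotated base of Avpr2, with bases that lie in exons of both genes shaded. The shading covers 81.3% of the exonic bases of Avpr2 and leaves free only the end of its last exon.

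ENaC is built of an alpha, a beta and a gamma subunit. The alpha gene Scnn1a stood at 80.2, 75.3 and 71.7 CPM in Dmrt2 knockouts, against 72.1, 72.1 and 77.2 CPM in controls, with overlap (log2 fold change 0.05 ± 0.060 SE, adjusted p = 0.81). Hmx3 Hmx2 knockouts ran from 59.4 to 82.0 CPM with a median of 66.4, against 57.7 to 77.0 CPM with a median of 64.8 in controls (0.03 ± 0.064 SE, adjusted p = 0.98). Libraries labelled triple knockout had 72.9, 73.9 and 72.9 CPM, inside the control values of 84.5, 77.3 and 64.0 CPM (−0.02 ± 0.089 SE, adjusted p = 0.95).

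Scnn1b, the beta subunit gene, had 111.99, 91.4 and 97.9 CPM in Dmrt2 knockouts, against 105, 104 and 101 CPM in controls (log2 fold change −0.03 ± 0.069 SE, adjusted p = 0.90). In Hmx3 Hmx2 knockouts it stood at 115.7, 119.9, 109.8, 111.3, 115.9 and 120.6 CPM, against 111.4, 112.2, 115.6, 109.2, 113.6 and 108.1 CPM in controls. The groups overlapped, and the 95% interval of the fold ran from 0.995 to 1.09 (0.06 ± 0.031 SE on the log2 scale, adjusted p = 0.94). In libraries labelled triple knockout it stood at 99.8, 91.4 and 93.2 CPM, against 113, 104 and 98.7 CPM in controls (−0.13 ± 0.060 SE, adjusted p = 0.29), where 1 knockout value lay above the lowest control.

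Scnn1g, the gamma subunit gene, had 64.4, 56.0 and 60.7 CPM in Dmrt2 knockouts, against 59.6, 59.8 and 68.6 CPM in controls (log2 fold change −0.04 ± 0.069 SE, adjusted p = 0.86). Hmx3 Hmx2 knockouts ran from 68.1 to 86.1 CPM with a median of 74.6, against 69.7 to 82.6 CPM with a median of 73.5 in controls (0.04 ± 0.055 SE, adjusted p = 0.97). Both knockouts overlapped their controls. The libraries labelled triple knockout had 62.3, 59.3 and 60.7 CPM, against 81.3, 81.5 and 61.8 CPM in controls. The third control lay among the knockouts and the other controls above them (−0.28 ± 0.10 SE, 95% interval −0.51 to −0.05, adjusted p = 0.21). Without that library the change was −0.40 with an adjusted p of 0.0024, past the threshold, and DESeq2 called it with all libraries (−0.28, adjusted p = 0.047).

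Scnn1g lies 96563 bp from Scnn1b on chromosome 7 (121333702 to 121367698 on mm39), 9.78 Mb from Hmx2. Within each library the ratio of Scnn1g to Scnn1a per kilobase was 1.11 to 1.18 in libraries labelled triple knockout and 1.33 to 1.46 in their controls. In the Dmrt2 line it was 1.03 to 1.17 in knockouts and 1.14 to 1.23 in controls, and in the Hmx3 Hmx2 line 1.27 to 1.83 in knockouts and 1.31 to 1.79 in controls. The control that stood among the knockouts in Scnn1g was low in Scnn1a as well, so the ratio did not overlap between the groups of the triple line. The ratio was set up after these values were seen and was given no test.

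Markers of the distal and connecting tubule were read beside Scnn1g. S100g, a vitamin D-dependent calcium-binding protein gene, had 61.1, 61.9 and 60.9 CPM in libraries labelled triple knockout, against 195, 187 and 134 CPM in controls, and was called lower (log2 fold change −1.47 ± 0.15 SE, adjusted p = 0.024). Calb1, which encodes calbindin, averaged 70.9 ± 7.21 CPM there, against 159 ± 35.9 CPM in controls (SD, n = 3 each), and was not called (−1.14 ± 0.18 SE, adjusted p = 0.080). Slc12a3, the thiazide-sensitive cotransporter gene, averaged 210 ± 17.0 CPM there and 207 ± 32.5 CPM in controls (SD, n = 3 each), with a log2 fold change of 0.04 and an edgeR adjusted p of 0.90. Of 7 tested distal and connecting tubule genes 1 was called lower and 0 higher, beside 1.03% of all genes called. Log2 fold changes were below 0 for 5 and above 0 for 2, Slc12a3 and Pvalb (median −0.63, against 0.001 over all genes). Their summed level was 366 to 401 CPM in libraries labelled triple knockout and 476 to 669 CPM in controls. None of the 7 was under 0.1 CPM in all libraries. The part of these cells in the Scnn1g difference was not tested.

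Hsd11b2 encodes the enzyme that protects the mineralocorticoid receptor from glucocorticoids. In Dmrt2 knockouts it stood at 93.8, 85.9 and 87.3 CPM, against 86.2, 89.01 and 85.6 CPM in controls, a change of 0.05 ± 0.054 SE on the log2 scale (adjusted p = 0.80). Hmx3 Hmx2 knockouts ran from 75.9 to 94.1 CPM with a median of 83.7, against 72.4 to 93.5 CPM with a median of 81.6 in controls (0.05 ± 0.038 SE, adjusted p = 0.95). Libraries labelled triple knockout had 75.1, 84.2 and 75.0 CPM, against 91.4, 82.1 and 85.9 CPM in controls, with 1 knockout inside the control range (−0.12 ± 0.062 SE, adjusted p = 0.32). Replicates 4 to 6 of the Hmx3 Hmx2 line, deposited in a table of their own, stood higher than replicates 1 to 3 in both genotypes. They had 89.1 ± 5.09 and 79.4 ± 3.83 CPM in knockouts, and 90.8 ± 2.85 and 73.7 ± 1.57 CPM in controls (SD, n = 3 each).

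Elf5 encodes an ETS-family transcription factor found in principal cells of the collecting duct. Its values were 26.7, 25.6 and 26.4 CPM in Dmrt2 knockouts, against 25.7, 29.9 and 30.4 CPM in controls (log2 fold change −0.12 ± 0.075 SE, adjusted p = 0.57). Hmx3 Hmx2 knockouts ran from 23.5 to 27.3 CPM with a median of 25.2, against 21.7 to 27.5 CPM with a median of 25.1 in controls (0.03 ± 0.051 SE, adjusted p = 0.97). Libraries labelled triple knockout had 24.1, 21.3 and 22.95 CPM, against 22.2, 23.1 and 24.5 CPM in controls (−0.01 ± 0.073 SE, adjusted p = 0.97). Knockouts and controls overlapped in every line.

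Counted over the set, 0 of 9 genes were called in the Dmrt2 comparison, where edgeR called 0.444% of 19807 genes tested. In the Hmx3 Hmx2 comparison 0 of 8 were called, against 0.021% of 19050 genes, and in the triple comparison 0 of 9, against 1.03% of 21537 genes. An unadjusted p under 0.05 was found for 1 of 9 members and 12.3% of all genes in the Dmrt2 comparison, 1 of 8 and 4.93% in the Hmx3 Hmx2 comparison, and 2 of 9 and 17.9% in the triple comparison. With shares as low as these a set of 9 genes would seldom hold a call, so the counts alone say little about the set. DESeq2 called 1 of 8 members and 2.43% of all genes in the Dmrt2 comparison, 0 of 9 and 0.0147% in the Hmx3 Hmx2 comparison, and 1 of 8 and 5.93% in the triple comparison. Without the count filter edgeR called 1 of 9 members and 2.1% of all genes in the Dmrt2 comparison, and 2 of 9 and 4.46% in the triple comparison. In the Dmrt2 comparison all knockouts lay below all controls for 2 of the 9 genes (Aqp2 and Aqp3) and for 8.6% of all genes tested. In the triple comparison this held for 1 of 9 (Aqp4) and for 15.6% of all genes.

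The median log2 fold change of the tested members was −0.04 in Dmrt2 knockouts, 0.05 in Hmx3 Hmx2 knockouts and −0.13 in libraries labelled triple knockout, beside −0.002, −0.005 and 0.001 over all genes. Directions were 6 of 9 below 0 in the Dmrt2 comparison, 0 of 8 in the Hmx3 Hmx2 comparison and 8 of 9 in the triple comparison. Summed without Avpr2, the members came to 754 ± 36.5 CPM in Dmrt2 knockouts and 914 ± 147 CPM in controls (SD, n = 3 each), and without Aqp2 as well to 461 ± 29.5 CPM in knockouts and 489 ± 24.1 CPM in controls. The same sum of 8 genes was 781 ± 84.5 CPM in Hmx3 Hmx2 knockouts and 725 ± 55.1 CPM in controls (SD, n = 6 each). It was 691 ± 54.7 CPM in libraries labelled triple knockout and 791 ± 44.4 CPM in controls (SD, n = 3 each), and these did not overlap. Without Aqp2 as well, the sum ran from 434 to 455 CPM in those knockouts and from 455 to 522 CPM in their controls.

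**Figure D3:**
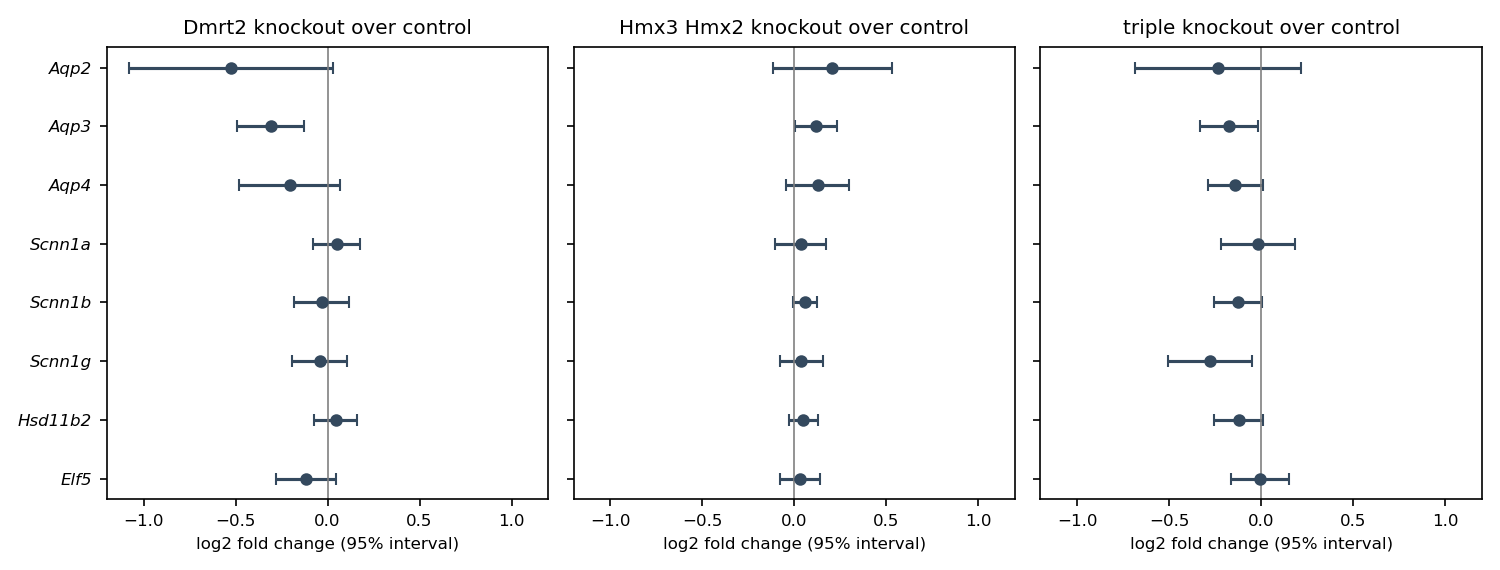
Log2 fold change, knockout over control of the same line, for the 8 genes other than Avpr2 (points) with 95% intervals (bars) from edgeR, in a panel per knockout. Intervals of Aqp2 are the widest, and before adjustment for the number of genes tested those of Aqp3 in the Dmrt2 and triple panels and of Scnn1g in the triple panel lie below 0, while that of Aqp3 in Hmx3 Hmx2 knockouts lies on the positive side of 0.

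Whether the knockouts acted differently on these genes was tested directly in a fit of all 24 libraries, each effect taken against controls of its own table. No member passed between Dmrt2 and Hmx3 Hmx2 knockouts (0.154% of 22101 genes did), between triple and Hmx3 Hmx2 (0.968%), or between triple and Dmrt2 (0.394%). Nearest was Aqp3, whose change was lower by 0.43 in Dmrt2 than in Hmx3 Hmx2 knockouts (−0.43 ± 0.11 SE, adjusted p = 0.16), and DESeq2 called this difference (adjusted p = 0.023) along with 0.548% of all genes. For Scnn1g the effect labelled triple minus that of Hmx3 Hmx2 was −0.32 ± 0.11 SE (adjusted p = 0.20), or −0.43 without triple control replicate 3, where it was called (adjusted p = 0.025). Hsd11b2 differed by −0.17 ± 0.080 SE between triple and Dmrt2 (adjusted p = 0.41). Within the Hmx3 Hmx2 line the knockout effect did not pass between the deposited tables for any of 8 members, nor for any of 19050 genes in edgeR. Among these genes 404 fell under an unadjusted p of 0.05, and 2 passed in DESeq2.

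The pathways on either side of these genes were read from fixed lists. Of all genes tested, 0.444%, 0.021% and 1.03% were called in Dmrt2, Hmx3 Hmx2 and triple, so 0 calls say little about a list. The counts are of whole kidneys and are not assigned to principal cells. Of 22 vasopressin signalling and aquaporin-2 trafficking genes, 0 were called in each knockout, with medians of 0.01, −0.002 and 0.007 in Dmrt2, Hmx3 Hmx2 and triple. Among them Adcy6, an adenylyl cyclase of the V2 receptor pathway, averaged 203 ± 4.88 CPM in Dmrt2 knockouts and 194 ± 12.3 CPM in controls, with a log2 fold change of 0.08. Nfat5, the tonicity-responsive transcription factor gene, averaged 358 ± 23.4 CPM in libraries labelled triple knockout and 287 ± 29.7 CPM in controls, the groups not overlapping (0.34 ± 0.082 SE, adjusted p = 0.084). Prkar1a, a regulatory subunit of protein kinase A, averaged 403 ± 9.49 CPM there and 457 ± 18.4 CPM in controls (−0.16, adjusted p = 0.16).

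Of 18 genes of the aldosterone response and ENaC control, 0 were called in each knockout, with medians of −0.013, 0.017 and −0.062. Beside them stand 0.444%, 0.021% and 1.03% of all genes called, so this too says little. Among them Atp1b1, a sodium pump beta subunit gene, averaged 1120 ± 44.1 CPM in Dmrt2 knockouts and 1160 ± 56.3 CPM in controls, with overlap (log2 fold change −0.04, adjusted p = 0.87). In libraries labelled triple knockout Atp1b1 averaged 1200 ± 85.1 CPM, against 1350 ± 124 CPM in controls (−0.15, adjusted p = 0.32). Of 12 transcription factor genes of the duct and tubule, 0 were called in each knockout, beside the same shares of all genes. The abundant Pax2 and Pax8 had log2 fold changes between −0.088 and 0.059.

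Of 10 other principal cell genes 0 were called in Dmrt2 and Hmx3 Hmx2 knockouts, beside 0.444% and 0.021% of all genes. In libraries labelled triple knockout 1 was lower, beside 1.03% of all genes called. That gene was Kcne1, a potassium channel beta subunit gene, at 3.83, 4.61 and 4.82 CPM, against 11.02, 9.58 and 7.20 CPM in controls (log2 fold change −1.04 ± 0.16 SE, adjusted p = 0.021). Kcnj1, the apical potassium channel ROMK through which principal cells secrete potassium, averaged 82.6 ± 6.4 CPM there and 96.1 ± 10.2 CPM in controls (−0.20, adjusted p = 0.28). This is its level in whole kidneys, which is not assigned to principal cells. Gata3, a transcription factor gene of the collecting duct, averaged 117 ± 2.84 CPM in Dmrt2 knockouts and 129 ± 9.3 CPM in controls, not overlapping (−0.13, adjusted p = 0.41). Npnt, which encodes nephronectin, averaged 763 ± 3.46 CPM in Dmrt2 knockouts and 775 ± 49.6 CPM in controls (−0.01, adjusted p = 0.96).

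Genes of the intercalated cells beside them were called in every knockout. In Dmrt2 knockouts, where 0.444% of all genes were called, lower were 1 of 11 shared genes (Atp6v1g3) and 3 of 5 of type A (Slc4a1, Aqp6 and Kit), and of 7 listed for the other subtypes 3 were higher (Slc26a4, Slc4a9 and Insrr) and 1 lower (Oxgr1). In Hmx3 Hmx2 knockouts, where 0.021% of all genes were called, Slc26a4 was called lower, and no other gene of these 3 lists. Called in libraries labelled triple knockout, beside 1.03% of all genes, were Atp6v1g3, Slc4a1 and Aqp6 as lower and Slc26a4, Slc4a9 and Insrr as higher. The 11 shared genes summed to 792 to 804 CPM in Dmrt2 knockouts and 878 to 952 CPM in controls. The 8 members other than Avpr2 summed to 715 to 787 CPM in Dmrt2 knockouts and 796 to 1080 CPM in controls, without overlap. Without Aqp2 their sums were 436 to 494 CPM in Dmrt2 knockouts and 473 to 517 CPM in controls, with overlap.

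Aqp2 stands in a cluster of aquaporin genes on chromosome 15 (99476936 to 99482428, plus strand, mm39), with Aqp5 6235 bp and Aqp6 16853 bp to its right. Aqp6, a vesicle channel of type A intercalated cells, had 0.846, 0.903 and 0.617 CPM in Dmrt2 knockouts, against 12.2, 13.4 and 18.6 CPM in controls, and was called lower (log2 fold change −4.24 ± 0.21 SE, adjusted p = 1.5e-06). It was also called lower in libraries labelled triple knockout, at 7.49, 5.06 and 6.92 CPM, against 19.9, 18.7 and 13.3 CPM in controls (−1.39 ± 0.20 SE, adjusted p = 0.033). Aqp5, an epithelial water channel gene between them, stood at 2.10, 1.60 and 1.90 CPM in Dmrt2 knockouts, against 2.41, 2.21 and 1.55 CPM in controls (−0.13 ± 0.21 SE, adjusted p = 0.86). The 95% intervals of Aqp6 (−4.69 to −3.78) and of Aqp2 (−1.08 to 0.03) in Dmrt2 knockouts did not overlap.

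**Figure D4:**
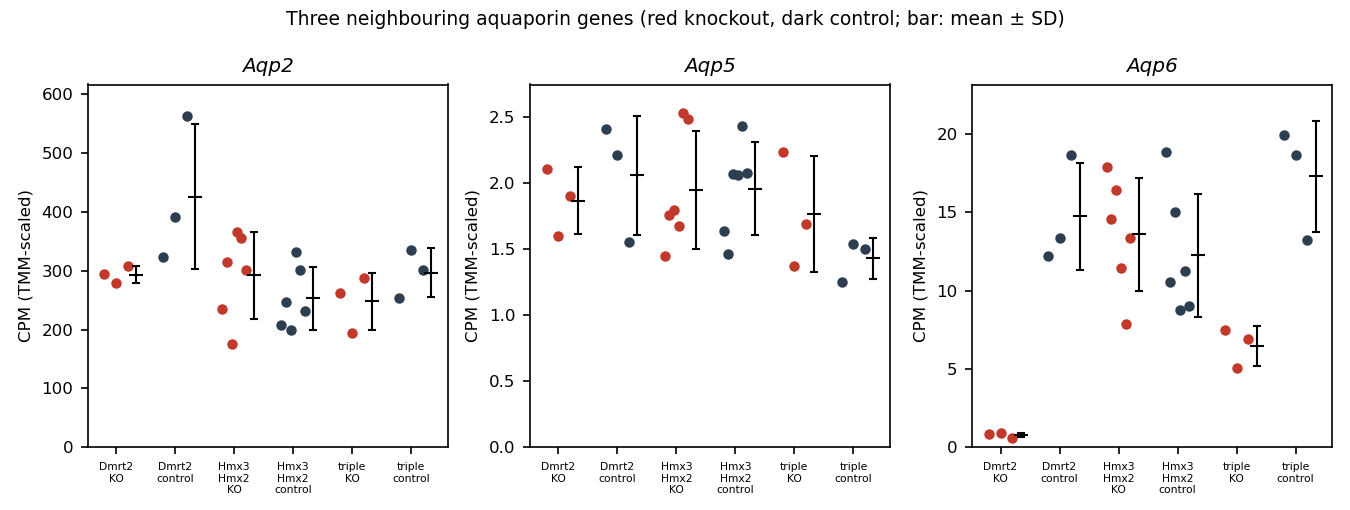
Levels of Aqp2, Aqp5 and Aqp6 in every library in CPM (y axes from 0, each with its own scale) by group, with mean and SD. Aqp6 lies under 1 CPM in the 3 Dmrt2 knockouts and at 12.2 to 18.6 CPM in their controls, while Aqp2 and Aqp5 show no gap of that size.

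Of the other aquaporin genes, 7 were tested in each comparison. Aqp8 was called higher in libraries labelled triple knockout, at 1.56, 1.64 and 1.38 CPM, against 0.498, 0.417 and 0.407 CPM in controls (log2 fold change 1.81 ± 0.23 SE, adjusted p = 0.0049). Aqp1, the water channel of proximal tubule and descending limb, averaged 194 ± 8.36 CPM in Dmrt2 knockouts and 217 ± 20.2 CPM in controls (−0.15, adjusted p = 0.41). Aqp11, an intracellular aquaporin gene, averaged 34.4 ± 1.99 CPM there and 31.8 ± 4.01 CPM in controls (0.12, adjusted p = 0.64). Next to Aqp3 on chromosome 4 (41092722 to 41098183, minus strand), Aqp7 averaged 5.05 CPM in Dmrt2 knockouts and 5.07 CPM in controls, and Nol6, on the other side, 84.2 and 84.7 CPM. Neither neighbour shared the lower values of Aqp3 there.

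The genes nearest to Hsd11b2, Elf5 and Scnn1a were not called in the comparisons given here. Neighbours of Scnn1b and Scnn1g are not reported here. Atp6v0d1, a proton pump subunit gene 477 bp from Hsd11b2 on chromosome 8, averaged 92.2 CPM in libraries labelled triple knockout and 104 CPM in controls (log2 fold change −0.15, adjusted p = 0.15). Cat, which encodes catalase, lies 2860 bp from Elf5 on chromosome 2 and averaged 202 CPM in Dmrt2 knockouts and 188 CPM in controls (0.12, adjusted p = 0.55). Tnfrsf1a, a tumour necrosis factor receptor gene 4419 bp from Scnn1a on chromosome 6, averaged 126 and 129 CPM (−0.02, adjusted p = 0.93).

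The promoters of Aqp2, Aqp3 and Scnn1g are shown because Aqp3 and Scnn1g came nearest to a call and both went with Aqp2 from library to library. They are the 250 bases before the RefSeq start site on GRCm38.p6, at chr15:99578806-99579055 on the plus strand, chr4:41098184-41098433 on the minus strand and chr7:121734229-121734478 on the plus strand. Capitals mark matches, on either strand, to a core of Dmrt sites (ACANTGT), a core of Hmx sites (CAAGTG) or a TATA box (TATAAA), and Aqp2 holds none of these.
Aqp2: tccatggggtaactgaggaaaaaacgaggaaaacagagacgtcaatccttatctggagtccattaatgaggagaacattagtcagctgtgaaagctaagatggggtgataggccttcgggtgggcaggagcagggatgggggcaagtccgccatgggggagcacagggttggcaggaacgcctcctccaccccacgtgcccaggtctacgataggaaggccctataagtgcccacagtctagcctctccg
Aqp3: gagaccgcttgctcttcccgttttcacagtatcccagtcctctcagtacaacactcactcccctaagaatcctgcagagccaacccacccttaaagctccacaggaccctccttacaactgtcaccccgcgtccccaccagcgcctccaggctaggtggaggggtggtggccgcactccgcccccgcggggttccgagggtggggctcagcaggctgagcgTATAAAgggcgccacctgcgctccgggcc
Scnn1g: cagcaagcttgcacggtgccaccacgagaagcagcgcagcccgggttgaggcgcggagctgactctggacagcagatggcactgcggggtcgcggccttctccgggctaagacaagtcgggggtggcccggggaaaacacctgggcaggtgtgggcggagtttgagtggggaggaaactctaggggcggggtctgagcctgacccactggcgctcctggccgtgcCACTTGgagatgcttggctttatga

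Motifs were searched in the full RefSeq windows, which run on to 50 bases after the start, for 6 members. Member windows on chromosome 18, where Aqp4 lies, were left out of this search. The Dmrt core was in none of their 7 windows and in 7.37% of all 32544 promoters. Scnn1g held the Hmx core on the minus strand at −25 (its letters there read CACTTG), as did Avpr2 at −209, against 13.5% of all promoters. TATAAA was in the Aqp3 window at −29 and on the minus strand in that of Avpr2 at −45, against 13.6%. TGACG, the core of the cyclic AMP response element, was on the minus strand of the Aqp2 window at −211 and of the second Elf5 window at −56, against 20.9%. GGAA, the ETS core, was in each of the 7 windows searched and in 96.0% of all promoters. These matches describe letters only.

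Levels were then compared library by library, after the mean of each group within its deposited table was subtracted from log2 CPM. Over the 24 libraries, from which 8 means had been removed, Aqp3 went with Scnn1g (Pearson r = 0.825) and with Aqp2 (0.767), and Aqp2 with Aqp4 (0.714). Hsd11b2 did not follow the water channels, with r = −0.591 to Aqp2 and −0.431 to Aqp4. Scnn1a went with Scnn1b (0.520) but not with Aqp2 (−0.094). Libraries share depth and the sampled tissue across genes, and these values are given as a description.

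**Figure D5:**
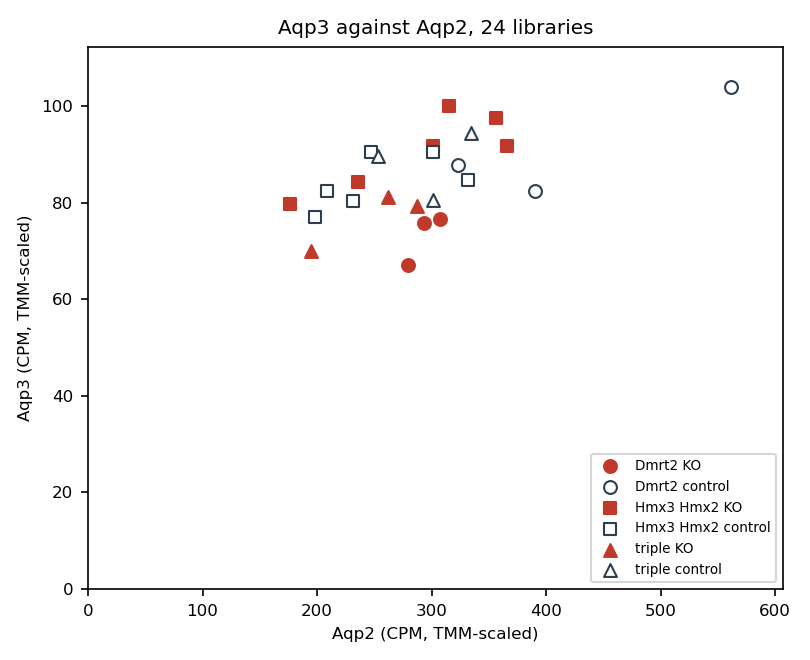
Aqp3 against Aqp2 in the 24 libraries, both in CPM on axes from 0, with filled symbols for knockouts and open symbols for controls. The 3 Dmrt2 knockouts lie together at 67.1 to 76.7 CPM of Aqp3, and the highest control of that line lies at 561 CPM of Aqp2 and 104 CPM of Aqp3.

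Dmrt2 control replicate 3 and Dmrt2 knockout replicate 1 were high over the 8 genes, each at a mean of 0.82 SD above its group, and triple control replicate 3 and Hmx3 Hmx2 knockout replicate 3 were low, at −0.70 and −0.78. Outside the set, the genes closest to the members' mean were Tex264 (r = 0.835), Rapsn (0.823), Kcnk1 (0.820), a potassium channel gene, St14 (0.811), which encodes the membrane protease matriptase, and Atp6v1f (0.783). Close to Aqp2 were Fars2 (0.852) and Gcnt3 (0.849). Closest to Aqp3 were Nkd1 (0.883), an inhibitor of Wnt signalling, Wsb2 (0.844) and Marveld1 (0.831). Aqp4 was closest to Agtrap (0.817), Coq4 (0.792) and St14 (0.777).

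For the sodium genes the closest profiles were Gpi1 (0.908), a glycolytic enzyme gene, Pfkp (0.878) and Trak1 (0.819) for Scnn1a, and Plpp3 (0.784), Hinfp (0.754) and Mrpl35 (0.747) for Scnn1b. Scnn1g was closest to Fstl3 (0.867), Tpst2 (0.841) and Aqp3 (0.825). Hsd11b2 was closest to Myo3b (0.797), Cntrl (0.758) and Slc25a47 (0.751), and Elf5 to Dlgap3 (0.778), C1qtnf12 (0.743) and Mmadhc (0.737). Only the Scnn1g list held another member.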

How the data were processed

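RNA of 24 whole kidneys was sequenced after poly(A) selection, per the labels' protocols. The authors deposited raw read counts per gene, 54393 genes in each of 4 tables. The submitters' processing notes name fastp 0.20.1, STAR 2.7.0e, featureCounts 2.0.1 and the mm39 build. The file headers name featureCounts 2.0.3 and a filtered GENCODE M29 annotation, with no option for strand, for multi-mapping or overlapping reads, or for counting pairs, so each read of a pair counts once. A further 2 columns, which carry no listed sample's name, were left out. Promoter sequences are from RefSeq (GRCm38.p6), with 6 of 9 members used and chromosome 18, which holds Aqp4, left out. Other coordinates are those of the deposited tables (mm39).

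Groups follow the sample titles. Genes kept by filterByExpr (minimum count 10) were scaled by TMM and tested with edgeR 4.0.16 (R 4.3.3), by its robust quasi-likelihood F test over all genes and Benjamini-Hochberg adjustment, called at 0.05. Of 9 members 9, 8 and 9 passed the filter in the Dmrt2, Hmx3 Hmx2 and triple comparisons. The deposited table was a term for Hmx3 Hmx2 and for the fit of all libraries. SE is the absolute log2 fold change over the square root of F. Printed CPM use TMM factors over all 24 libraries. Scripts were tested on simulated data. Libraries of a group differed by more than sampling noise (24 pairs, chi-square over its degrees of freedom from 5.61 to 29.71). Mitochondrial genes took 0.979% to 2.54% of counts. Intervals cover the spread between libraries, and depth limits low genes only. Alternatives were DESeq2 1.42.0, no TMM scaling, no filter, a replicate block, a Y-linked covariate, single deposited tables, no table term, a joint fit and leaving out each library.

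The members and gene lists were chosen with earlier results of these data known. Named besides the members are list genes that were called, else at most the 3 most abundant of a list, the nearest tested neighbours within 100 kb, and the genes closest in profile (at least 1 CPM). Trpv5, Trpm6 and further list genes are given as counts only. Some genes that this rule names are not reported here.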

Additional observations from a re-analysis of the deposited data

How the results depend on the processing

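In the Dmrt2 comparison 1 member (Aqp3) was called without the count filter and 1 with DESeq2, where genes called in all were 676 and 417 against 88. In the triple comparison 2 members (Aqp3 and Scnn1g) were called without the filter and 1 (Scnn1g) with DESeq2, where genes called were 1510 and 1034 against 222. The cause was not tested. Leaving out single libraries gave 0 to 1 member calls in the triple comparison and in triple minus Hmx3 Hmx2, the 1 being Scnn1g without triple control replicate 3. DESeq2 called 1 member in Dmrt2 minus Hmx3 Hmx2 (Aqp3). With the Y-linked covariate 13 genes were called in the Dmrt2 comparison, against 88, and 0 members. Leaving out single libraries moved the genes called over 26 to 195 in Dmrt2 (lowest without knockout replicate 2, highest without control replicate 1) and over 20 to 438 in triple (lowest without knockout replicate 3, highest without control replicate 3), and the joint fit called 573 in triple. For the differences DESeq2 called 257 genes in triple minus Dmrt2, 566 in triple minus Hmx3 Hmx2 and 105 in Dmrt2 minus Hmx3 Hmx2, against 87, 214 and 34. In Hmx3 Hmx2 each deposited table alone called 2 genes, against 4. Under the replicate block 0 members were called in each comparison (80, 5 and 51 genes in all, against 88, 4 and 222). The titles do not say that replicate numbers pair animals, so the numbers were not taken as pairs. Correlations of same-numbered libraries were 0.08 to 0.135 in the Dmrt2 line, −0.06 to 0.305 in the Hmx3 Hmx2 line and −0.365 to −0.188 in the triple line. Libraries correlated best with their own number in 3 of 3, 3 of 6 and 0 of 3 cases.

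Signs turned only for changes near 0. In Dmrt2 the covariate gave Scnn1b 0.121 and Scnn1g 0.044, and leaving out libraries −0.117 to 0.026 and −0.092 to 0.025. Leaving out libraries gave Scnn1a −0.01 to 0.061 in Hmx3 Hmx2, and in triple −0.126 to 0.076 for Scnn1a and −0.046 to 0.041 for Elf5. Without TMM scaling Scnn1a and Elf5 stood at 0.01 and 0.017 in triple. Hsd11b2 was −0.02 within replicates 4 to 6 of Hmx3 Hmx2. Of the members, low counts limit Avpr2, at 0 to 30 reads, and the exon overlap and a low level cannot be told apart there.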

Other observations

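Scnn1g and Kcne1 were set side by side across the lines. In libraries labelled triple knockout Scnn1g had 59.3 to 62.3 CPM and Kcne1 3.83 to 4.82 CPM, against 61.8 to 81.5 and 7.20 to 11.02 CPM in their controls. Knockouts of the Dmrt2 line had 56.0 to 64.4 CPM of Scnn1g and 4.26 to 4.84 CPM of Kcne1, against 59.6 to 68.6 and 4.62 to 5.39 CPM in their controls. Knockouts of the Hmx3 Hmx2 line had 68.1 to 86.1 and 7.82 to 11.1 CPM, against 69.7 to 82.6 and 7.64 to 9.11 CPM in their controls. The values in libraries labelled triple knockout overlapped those of the Dmrt2 line, knockouts and controls, for Scnn1g and for Kcne1, and for Scnn1g those of their own controls too. This was noticed after the values were seen, levels were set across deposited tables, and it was not tested.

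Replicates 4 to 6 of the Hmx3 Hmx2 line held on average more Aqp2 than replicates 1 to 3, at 341 ± 34.8 and 242 ± 69.8 CPM in knockouts and 288 ± 51.7 and 218 ± 25.5 CPM in controls (SD, n = 3 each). The ranges overlapped in both genotypes, and the difference was not tested.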
